A study of Mus musculus with 4 samples.

Results

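The annexins are a family of calcium-dependent phospholipid-binding proteins, described here at the level of their transcripts in mouse quadriceps muscle. The set was defined as 9 annexin genes, matched by Entrez identifier to the probe sets of an Affymetrix array. Of these 9 genes, 8 were measured, each by 1 probe set among the 16492 tested (15267 named genes in all). They are Anxa1, Anxa2, Anxa3, Anxa4, Anxa5, Anxa6, Anxa7 and Anxa8, and Anxa11 was not analysed here. The study compared 2 mdm mutant mice, which carried a mutation in titin (Ttn), with 2 mice labelled titin wild type. Both groups were of strain B6C3Fe a/a-Ttnmdm/J, so the non-agouti alleles written in the strain name belong to both. The labels name no treatment, age or zygosity, and the mdm mutation (muscular dystrophy with myositis) is an inherited lesion of titin, the molecular spring of the sarcomere. The sample titles mark the mutant mice Ttn+ and the wild type mice Ttn-, where, by the descriptions and genotype labels, plus means that the mutation is present. Each array held whole quadriceps RNA of 1 mouse.

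Annexins share a conserved core that binds negatively charged phospholipids when calcium rises, and each member carries its own amino-terminal tail that sets its partners. When the membrane of a muscle fibre tears, calcium enters and annexins gather at the lesion, where they help to form a cap that seals it. The family is also active in other cells of injured muscle: annexin A1 signals to leukocytes through formyl peptide receptors, annexin A2 presents plasminogen on the cell surface, and annexin A5 binds the phosphatidylserine that dying cells expose.

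All values are log2 values made with RMA, a method that corrects background, equalises the arrays and summarises probes into 1 value per gene. A difference is the mutant mean minus the wild type mean on that scale, given ± its standard error from limma, with n = 2 mice per group throughout. Each adjusted p is that of limma after the Benjamini-Hochberg procedure on all 16492 probe sets, and a gene was said to have risen or fallen where it was under 0.05. Values ran from 5.42 to 14.98, with a median of 7.28 on every array. The 10 mature fibre markers averaged 14.06 and 13.84 in the mdm mutant mice, against 13.69 and 14.08 in the wild type mice, and 0 of them rose or fell. Many of them sit at the top of the range that RMA made equal across arrays, up to 14.98, where values can hardly move. This count therefore does not show that fibre content was unchanged. The mice differed in the slow myosin gene Myh7, which read 11.62 and 10.40 in mdm mutant mice and 8.45 and 11.93 in wild type mice, and its part in any result was not tested. Sarcolipin (Sln), named in the series title, read 13.58 and 13.73 in mdm mutant and 8.09 and 8.01 in wild type mice. Ttn differed by 0.05 ± 0.05 (adjusted p = 0.564), and since the position of its probes relative to the mutation is unknown here, it does not check the labels.

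Of the 8 measured annexins, 5 rose in mdm mutant muscle and 0 fell, while 3 did not pass the test. Of these 3, Anxa8 was higher and Anxa3 lower at an unadjusted limma p under 0.05. That cut was passed by 5065 of all 16492 probe sets, in either direction. Over all probe sets 12.8% were called, 6.46% higher and 6.36% lower. The annexins that rose were Anxa1, Anxa4, Anxa7, Anxa5 and Anxa2, in order of the size of the difference. Without variance moderation, where each gene's spread rests on its own 2 residual degrees of freedom, 0 annexins were called. In that fit 4 annexins were higher at an unadjusted p under 0.05, a cut that 3286 of all 16492 probe sets passed in either direction. The median difference of the 8 annexins was 0.43, against −0.02 over all probe sets. An exact permutation test of 2 against 2 mice cannot go below p = 0.333 (2-sided), so no single gene was tested that way.

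**Figure D1:**
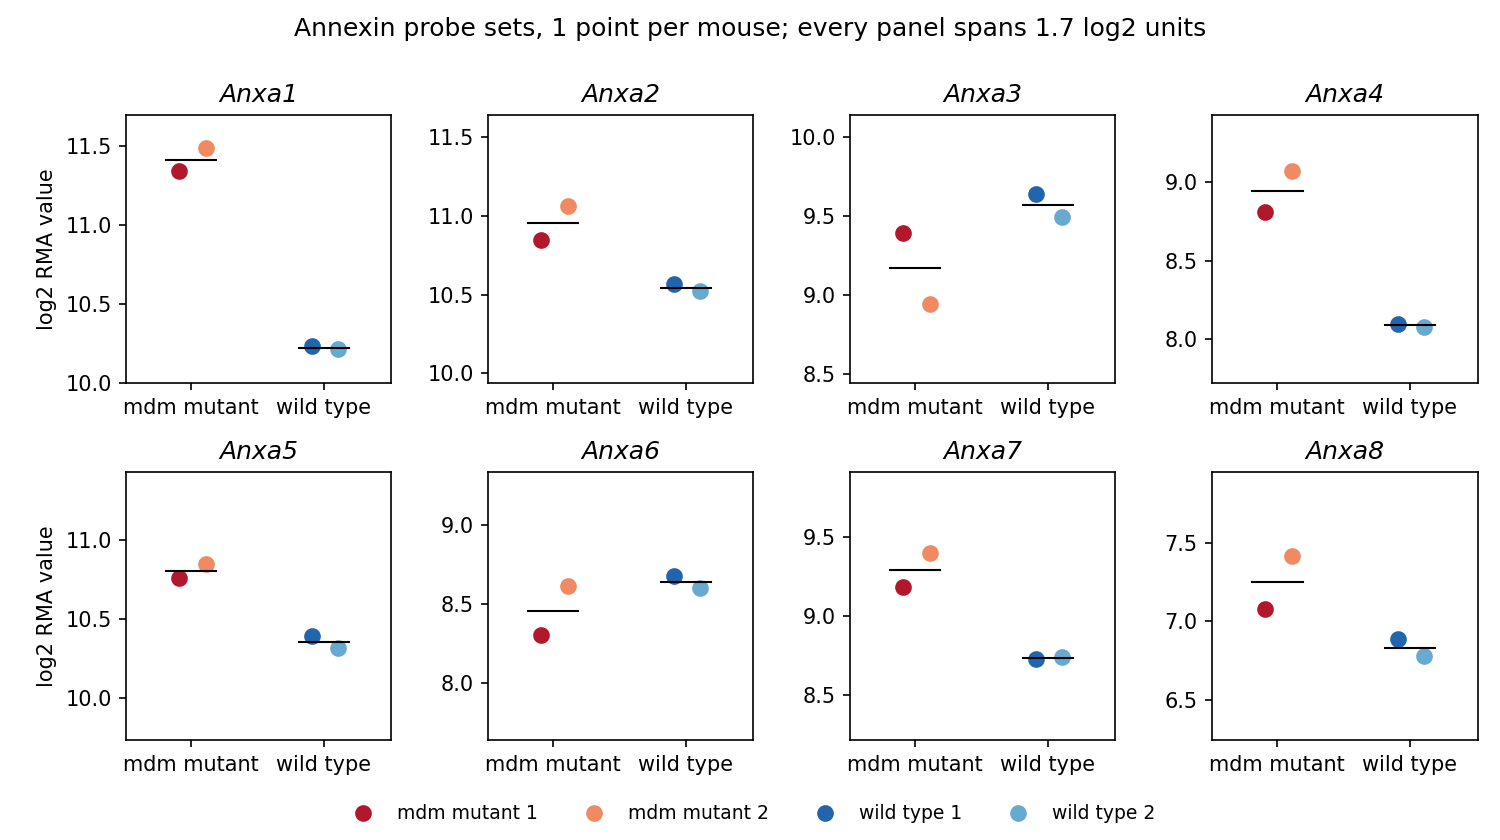
Levels of the 8 measured annexins as log2 RMA values, with 1 point per mouse, mdm mutant mice left of wild type mice and a line at each group mean. In Anxa1 the mutant points (11.34 and 11.49) lie far above the wild type points (10.23 and 10.21), whereas in Anxa6 the groups overlap.

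The promoters of the gene with the largest difference and of the annexin whose window held the most kinds of motif are shown to place these transcripts on the genome. The sequences are the 250 bases before the start of each gene, 5′ to 3′ on the gene's strand, from RefSeq for build GRCm38.p6. Capitals mark matches to the TATA box (TATAAA), the GC box (GGGCGG) or the AP-1 motif (TGANTCA), searched on both strands.
Anxa1 promoter, chr19:20390672-20390921, - strand: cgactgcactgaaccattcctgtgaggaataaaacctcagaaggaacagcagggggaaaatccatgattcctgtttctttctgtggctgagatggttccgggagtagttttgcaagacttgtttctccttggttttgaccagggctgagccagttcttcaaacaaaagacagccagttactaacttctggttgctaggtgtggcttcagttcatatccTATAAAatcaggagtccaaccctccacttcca
Anxa2 promoter, chr9:69453433-69453682, + strand: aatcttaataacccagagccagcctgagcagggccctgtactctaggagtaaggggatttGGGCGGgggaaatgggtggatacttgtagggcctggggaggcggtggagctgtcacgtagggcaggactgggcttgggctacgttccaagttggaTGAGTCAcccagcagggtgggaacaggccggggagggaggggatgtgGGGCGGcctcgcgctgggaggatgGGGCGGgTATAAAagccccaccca
The TATA box of Anxa1 begins 32 bases before the start. That of Anxa2 begins 17 bases before it, and its AP-1 match (TGAGTCA) begins 95 bases before it. Windows of 300 bases, which reach 50 bases past the start, were found for 6 of the 8 measured annexins (8 windows, since Anxa4 and Anxa7 each have a pair, and those of Anxa7 overlap). A TATA box was in 2 of these 8 windows and in 13.6% of all 32851 windows in the RefSeq table. A GC box was in 4 of the 8 and in 35.7% of all windows, and AP-1 in 1 of the 8 and in 7.81% of all windows. No match to AP-1 was found in the Anxa1, Anxa4, Anxa5, Anxa7 or Anxa8 windows, which says only that these letters are absent there.

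Annexin A1, a glucocorticoid-induced protein that restrains phospholipase A2 and limits leukocyte entry, had the largest difference of the family. Anxa1 (Entrez 16952) read 11.34 and 11.49 in the mdm mutant mice, against 10.23 and 10.21 in the wild type mice. The groups did not overlap, and the lower mutant lay 1.11 above the higher wild type mouse, several times the spread within either group. The difference was 1.19 ± 0.07 or 2.28-fold (95% interval 1.02 to 1.36, adjusted p = 0.00297). It ranked 80 of 16492 probe sets by absolute difference. Anxa1 passed with any 1 mouse left out, at adjusted p between 0.0091 and 0.023, but not without variance moderation (adjusted p = 0.179).

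Annexin A2 forms a complex with S100a10 that bridges membranes, binds actin and presents plasminogen. Anxa2 (Entrez 12306) read 10.85 and 11.06 in the mdm mutant mice, against 10.56 and 10.52 in the wild type mice. Both mutants lay above both wild type mice, with a gap of 0.28. The difference was 0.41 ± 0.08 or 1.33-fold (95% interval 0.20 to 0.62, adjusted p = 0.0360). This was the rise with the largest adjusted p among the 5, and it passed only without mdm mutant 1 among the settings that leave out 1 mouse. The adjusted p was 0.0979 without mdm mutant 2, 0.117 without wild type 1, 0.146 without wild type 2 and 0.268 without variance moderation.

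Annexin A4, best known from epithelia, self-assembles on membranes and was the annexin with the second largest rise by size. Anxa4 (Entrez 11746) read 8.81 and 9.07 in the mdm mutant mice, against 8.10 and 8.08 in the wild type mice. The wild type mice nearly coincided, and the lower mutant lay 0.71 above them. The difference was 0.85 ± 0.09 or 1.80-fold (95% interval 0.62 to 1.08, adjusted p = 0.00996), rank 234 by absolute difference. The call was lost without wild type 1 or wild type 2 (adjusted p = 0.0535 and 0.0553) and without variance moderation (adjusted p = 0.208).

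Annexin A5 forms ordered lattices on phosphatidylserine and promotes resealing of torn membranes. Anxa5 (Entrez 11747) read 10.76 and 10.85 in the mdm mutant mice, against 10.39 and 10.32 in the wild type mice. The groups were 0.37 apart, and the mice of each group lay within 0.1 of each other. The difference was 0.45 ± 0.06 or 1.37-fold (95% interval 0.30 to 0.60, adjusted p = 0.0153). Anxa5 passed without mdm mutant 1 (adjusted p = 0.0356) but not without mdm mutant 2, wild type 1 or wild type 2 (adjusted p = 0.0669, 0.0584 and 0.0766) or without variance moderation (adjusted p = 0.201).

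Annexin A7 carries a long amino-terminal tail, promotes membrane fusion and binds the calcium sensor sorcin. Anxa7 (Entrez 11750) read 9.18 and 9.40 in the mdm mutant mice, against 8.73 and 8.74 in the wild type mice. The groups were 0.45 apart, with the wild type mice closest to each other among all 8 annexins. The difference was 0.56 ± 0.08 or 1.47-fold (95% interval 0.35 to 0.76, adjusted p = 0.0184). The call was lost without wild type 1 or wild type 2 (adjusted p = 0.0835 and 0.0845) and without variance moderation (adjusted p = 0.233).

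The other 3 measured annexins did not pass the test. Annexin A6 has a duplicated core and takes part in the repair cap of muscle fibres. Anxa6 (Entrez 11749) read 8.30 and 8.61 in the mdm mutant mice, against 8.67 and 8.60 in the wild type mice, and here the groups overlapped. The difference was −0.18 ± 0.11 (95% interval −0.46 to 0.09, adjusted p = 0.322), so a difference as large as that of Anxa5 upward lies outside the interval.

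Annexin A3 is abundant in neutrophils and is also made by endothelial cells. Anxa3 (Entrez 11745) read 9.39 and 8.94 in the mdm mutant mice, against 9.64 and 9.49 in the wild type mice. Both mutants lay below both wild type mice, but the mutants were 0.45 apart, more than any other annexin. The difference was −0.40 ± 0.15 (95% interval −0.78 to −0.01, adjusted p = 0.151). Without mdm mutant 1 it was −0.62 and passed (adjusted p = 0.034), and without mdm mutant 2 it was −0.17 (adjusted p = 0.341).

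Annexin A8 is known from stratified epithelia and late endosomes. Anxa8 (Entrez 11752) read 7.08 and 7.42 in the mdm mutant mice, against 6.89 and 6.78 in the wild type mice, near or below the array median of 7.28. The groups did not overlap, and the mutants were 0.34 apart. The difference was 0.41 ± 0.12 (95% interval 0.11 to 0.71, adjusted p = 0.0828). It passed without mdm mutant 1 (0.58, adjusted p = 0.0319) and with arrays centred on the hybridization controls (0.52, adjusted p = 0.0394). In that setting the median of all probe sets moved to 0.09.

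Of the 8 annexins, 7 had groups that did not overlap, where 60.9% of all probe sets had no overlap. The mutants lay above in 6 annexins, against 26.7% of all probe sets, and below in 1, against 34.2%. The 95% interval of Anxa1 lay above those of Anxa2, Anxa3, Anxa5, Anxa6, Anxa7 and Anxa8, and overlapped that of Anxa4. Differences between members were not tested. With 1 mouse left out, the number of annexins that passed was lowest without either wild type mouse, as was the number of all probe sets that passed. Anxa1 alone was called in all 4 of these fits, with a difference between 1.12 and 1.26. The family members outside the set that were measured, Anxa9, Anxa10 and Anxa13, read between 5.85 and 6.38 on all arrays. They differed by 0.05 ± 0.06, 0.08 ± 0.06 and 0.01 ± 0.06 and did not pass (adjusted p = 0.651, 0.441 and 0.962).

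**Figure D2:**
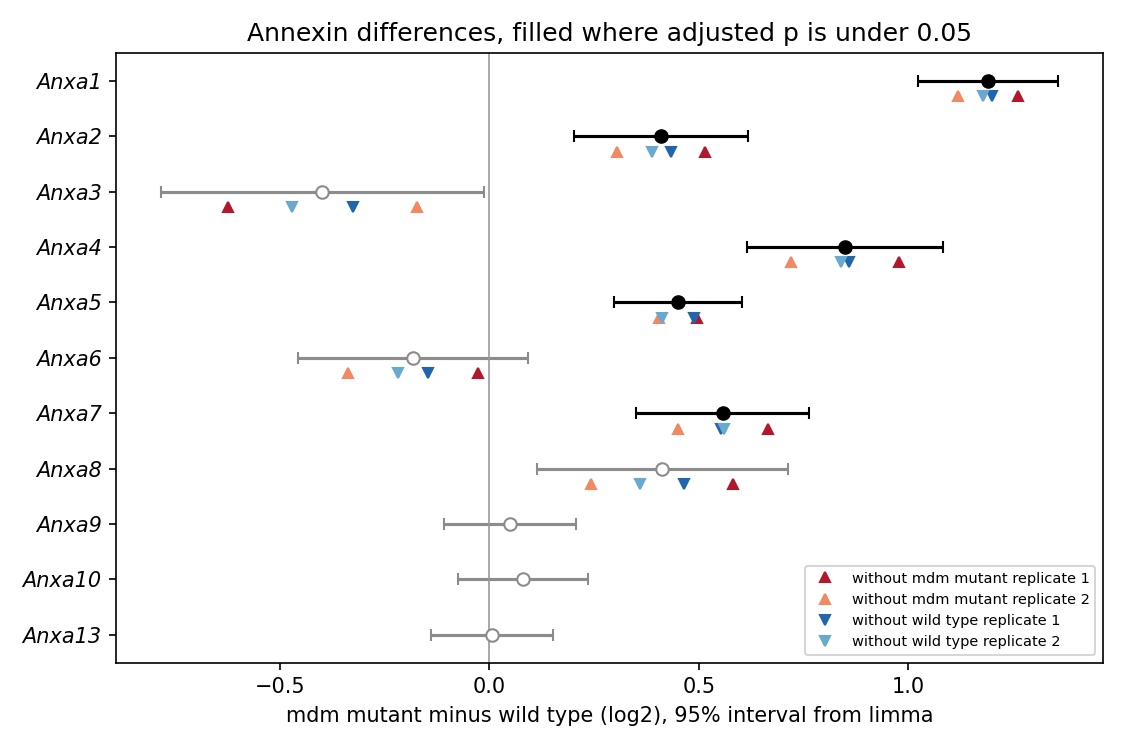
Difference between mdm mutant and wild type muscle (log2) for the 11 measured annexin genes, with 95% intervals from limma. Filled circles passed at an adjusted p under 0.05, and triangles show the difference with 1 mouse left out, drawn for the 8 genes of the set. The rises of Anxa1, Anxa4, Anxa7, Anxa5 and Anxa2 keep their sign with any mouse left out, as they must where the groups do not overlap.

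The mutants differed from each other in a like direction for most of the family. In 7 of the 8 annexins mdm mutant 2 read above mdm mutant 1, by 0.09 (Anxa5) to 0.34 (Anxa8), while Anxa3 read 0.45 lower in mdm mutant 2. Over all probe sets mdm mutant 2 was the higher mutant in 49.3%. The wild type mice differed by at most 0.15 in any of the 8 annexins. These are values of 1 pair of mice and have no test.

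Some markers of leukocytes also rose in mdm mutant muscle, while most did not pass. Among 14 macrophage markers, 6 were called higher, 0 lower and 8 neither, with a median difference of 0.30. The share called was 42.9%, against 12.8% of all probe sets. Their mean level was 8.73 and 8.95 in the mdm mutant mice, against 8.16 and 8.08 in the wild type mice. Galectin 3 (Lgals3), the perforin-like gene Mpeg1 and the leukocyte phosphatase Ptprc rose by 2.60 ± 0.19, 1.54 ± 0.15 and 0.92 ± 0.10. In 12 of the 14 markers mdm mutant 2 was the higher mutant, as in 7 of the 8 annexins. With a mutant left out, 6 (mdm mutant 1) or 5 (mdm mutant 2) of these markers rose, and with a wild type mouse left out, 3 (wild type 1) or 2 (wild type 2).

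Among 11 neutrophil markers, 4 were called higher, 0 lower and 7 neither, a share of 36.4% called, against 12.8% of all probe sets. Their mean levels were 7.46 and 7.89 in the mdm mutant mice, against 6.968 and 6.998 in the wild type mice. The calprotectin subunits S100a8 and S100a9 and the cathelicidin gene Camp rose by 2.43 ± 0.26, 2.08 ± 0.22 and 0.80 ± 0.13. Anxa3, an annexin of neutrophils, stood at −0.40 beside them. With a mutant left out, 7 (mdm mutant 1) or 4 (mdm mutant 2) neutrophil markers rose, and with a wild type mouse left out, 0 (wild type 1) or 2 (wild type 2). In whole muscle RNA, more cells of a type and more RNA per cell cannot be told apart, and the part of these cells in the annexin differences was not tested.

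Endothelial markers had lower values in mdm mutant muscle, as had Anxa3, which did not pass the test. Over all 16492 probe sets, 9174 had negative differences and 6.36% fell. All 10 endothelial markers had negative differences, of which 2 fell, 0 rose and 8 did not pass, with a median of −0.32. Their mean level was 8.17 and 7.87 in the mdm mutant mice, against 8.38 and 8.29 in the wild type mice. The adhesion molecule Pecam1 and the guidance receptor Robo4 fell (−0.33 ± 0.07 and −0.44 ± 0.10), and Esam differed by −0.31 ± 0.08. In 9 of the 10 markers mdm mutant 2 was the lower mutant, as it was for Anxa3, and a part of these cells in the Anxa3 values was not tested. With mdm mutant 1 left out 6 endothelial markers fell, with mdm mutant 2 or wild type 1 left out 0, and with wild type 2 left out 1. With arrays centred on the hybridization controls 0 fell.

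Regenerating muscle markers rose in all 9 measured cases, where 6.46% of all probe sets rose. The mean levels of these 9 were 9.60 and 9.66 in the mdm mutant mice, against 7.47 and 7.45 in the wild type mice. The perinatal and embryonic myosins Myh8 and Myh3 rose by 2.68 ± 0.05 and 4.59 ± 0.16, and the embryonic light chain Myl4 by 3.04 ± 0.13. The median difference of the 9 lay between 2.13 and 2.42 with any 1 mouse left out. In 7 of the 9 mdm mutant 2 was the higher mutant. Of 10 fibroblast markers, 2 rose, 0 fell and 8 did not pass (median 0.15), the 2 being lumican (Lum, 0.42 ± 0.05) and fibulin 1 (Fbln1, 0.38 ± 0.06). The median of the fibroblast markers lay between 0.12 and 0.14 with any 1 mouse left out, while the number that passed varied. Their part in the annexin differences was not tested.

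Of 10 epithelial markers, relevant to Anxa4 and Anxa8, 2 rose, 0 fell and 8 did not pass, with a median of −0.06. The desmosomal gene Dsp read 8.72 and 8.46 in the mdm mutant mice, against 6.25 and 6.19 in the wild type mice, and Trp63 rose by 0.77 ± 0.06. The claudin Cldn4 differed by −0.15 ± 0.08, and 7 of the 10 markers had negative differences. The mean level of the list was 6.98 and 6.93 in the mdm mutant mice, against 6.70 and 6.69 in the wild type mice. That higher mean came mainly from Dsp, which rose by 2.37 ± 0.10. The share called was 20.0% in the endothelial, fibroblast and epithelial lists alike, against 12.8% of all probe sets. The keratin genes Krt5 and Krt14 of stratified epithelia differed by −0.08 ± 0.05 and −0.05 ± 0.05. Of 6 adipocyte markers, 0 were called in either direction by limma and 4 had an unadjusted p under 0.05, as had 5065 of all 16492 probe sets. The median of the 6 was 0.57, with Lep, Pparg and Retn at 0.31 ± 0.08, 0.34 ± 0.11 and 0.92 ± 0.33. The mean level of the adipocyte list was 9.58 and 9.68 in the mdm mutant mice, against 9.34 and 8.72 in the wild type mice. Its median difference was 0.88 with wild type 1 left out and 0.33 with wild type 2 left out. Without variance moderation 0 genes of any of the marker lists were called. With arrays centred on the hybridization controls 11 macrophage, 6 neutrophil, 5 fibroblast and 2 adipocyte markers rose. In that setting 2829 of all 16492 probe sets rose, and the median difference of all probe sets moved to 0.09.

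**Figure D3:**
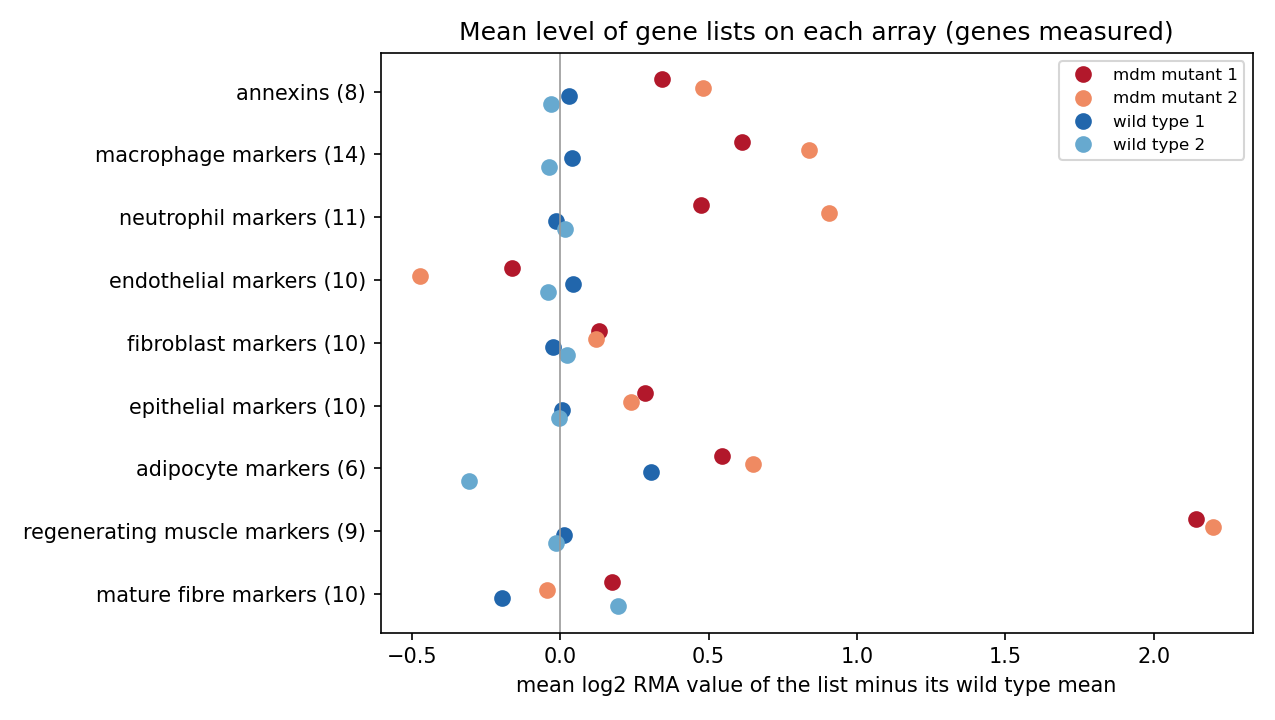
Mean log2 RMA value of the annexins and of each marker list on each array, minus the mean of the wild type arrays for that list. The annexin, macrophage, neutrophil, adipocyte and regenerating muscle lists place mdm mutant 2 farthest to the right, and the endothelial list places it farthest to the left.

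Among 16 measured annexin partners, 3 rose and 1 fell, and the other 12 did not pass, with a median difference of 0.08. The share called was 25.0%, against 12.8% of all probe sets. The small calcium-binding protein S100a10, which ties a pair of annexin A2 molecules into a complex, read 10.58 and 10.62 in the mdm mutant mice, against 10.19 and 10.23 in the wild type mice. It rose by 0.39 ± 0.05 or 1.31-fold (adjusted p = 0.0149), next to 0.41 ± 0.08 for Anxa2. S100a10 passed without mdm mutant 1 but not without mdm mutant 2, wild type 1 or wild type 2 (adjusted p = 0.0703, 0.0736 and 0.0661).

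S100a6, a partner of annexins A2 and A11, read 11.46 and 11.65 in the mdm mutant mice, against 10.81 and 10.91 in the wild type mice. It rose by 0.69 ± 0.08 (adjusted p = 0.0116), a call lost without wild type 1 (adjusted p = 0.0613). S100a4, which binds annexin A2 and is also expressed by leukocytes and fibroblasts, read 10.01 and 10.39 in the mdm mutant mice, against 8.49 and 8.76 in the wild type mice. Its rise of 1.58 ± 0.15 or 2.98-fold (adjusted p = 0.00771) passed with any 1 mouse left out. S100a1, the S100 protein of striated muscle fibres, moved the other way, at 9.65 and 9.74 in the mdm mutant mice, against 10.07 and 10.04 in the wild type mice. It fell by 0.36 ± 0.06 (adjusted p = 0.0214), and with any 1 mouse left out it did not pass (adjusted p between 0.0586 and 0.0956).

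The measured receptor of annexin A1 did not pass the test. The formyl peptide receptor Fpr2 read 6.90 and 7.04 in the mdm mutant mice, against 6.98 and 6.91 in the wild type mice, below the array median, and differed by 0.03 ± 0.07 (95% interval −0.14 to 0.20, adjusted p = 0.830). Fpr1 and S100a11 were not analysed here.

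Of 19 measured membrane repair genes other than annexins, 1 rose and 2 fell, and the other 16 did not pass, with a median difference of −0.05. The share called was 15.8%, against 12.8% of all probe sets. The rise was Vps4b, an ATPase that recycles ESCRT-III filaments (0.35 ± 0.06, adjusted p = 0.0247). The titin-binding protease Capn3 fell by 0.82 ± 0.12 or 1.77-fold (adjusted p = 0.0167), at 9.40 and 9.36 in the mdm mutant mice, against 10.03 and 10.38 in the wild type mice. The acid sphingomyelinase gene Smpd1 fell by 0.28 ± 0.05 (adjusted p = 0.0326), and the calpain small subunit Capns1 differed by 0.24 ± 0.06 (adjusted p = 0.0579).

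Dysferlin (Dysf), the membrane fusion protein that annexins A1 and A2 bind, read 7.74 and 7.77 in the mdm mutant mice, against 7.82 and 7.81 in the wild type mice. The difference was −0.06 ± 0.05 (95% interval −0.18 to 0.07, adjusted p = 0.484). Trim72, another repair gene, was not analysed here. Vps4b and Smpd1 did not pass with any 1 mouse left out, and the call of Capn3 was lost when either mutant was left out (adjusted p = 0.0540 and 0.0771).

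Of 18 measured genes of phosphatidylserine exposure and clearance, the lipid that annexin A5 binds, 2 rose, 0 fell and 16 did not pass, with a median of 0.09. The share called was 11.1%, against 12.8% of all probe sets. Both that rose encode secreted ligands that bridge phosphatidylserine to the TAM receptors of phagocytes. Gas6 read 11.52 and 11.53 in the mdm mutant mice, against 10.25 and 10.26 in the wild type mice. This was a rise of 1.26 ± 0.05 or 2.40-fold (adjusted p = 0.00120), held with any 1 mouse left out, with mice of each group within 0.01 of each other. Pros1 rose by 0.35 ± 0.06 (adjusted p = 0.0259), and did not pass with any 1 mouse left out (adjusted p between 0.0623 and 0.108). The receptor Mertk and the scramblase family gene Plscr1 differed by 0.35 ± 0.09 and 0.38 ± 0.10 (adjusted p = 0.0624 and 0.0637). The other TAM receptors, Axl and Tyro3, differed by 0.09 ± 0.08 and 0.09 ± 0.05 (adjusted p = 0.514 and 0.325).

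Over these 3 functional lists, which hold 51 different measured genes, 6 rose and 3 fell. The share called was 17.6%, against 12.8% of all probe sets, while 62.5% of the measured annexins were called. With 1 mouse left out, the number of these genes that passed varied with the mouse, as did the number of all probe sets that passed. With arrays centred on the hybridization controls, 19 of the 51 rose and 2 fell, where 2829 of all 16492 probe sets rose and 603 fell. Without variance moderation 0 related genes rose and 0 fell. At an unadjusted p under 0.05 in that fit, 8 were higher and 5 lower, a cut that 3286 of all 16492 probe sets passed.

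**Figure D4:**
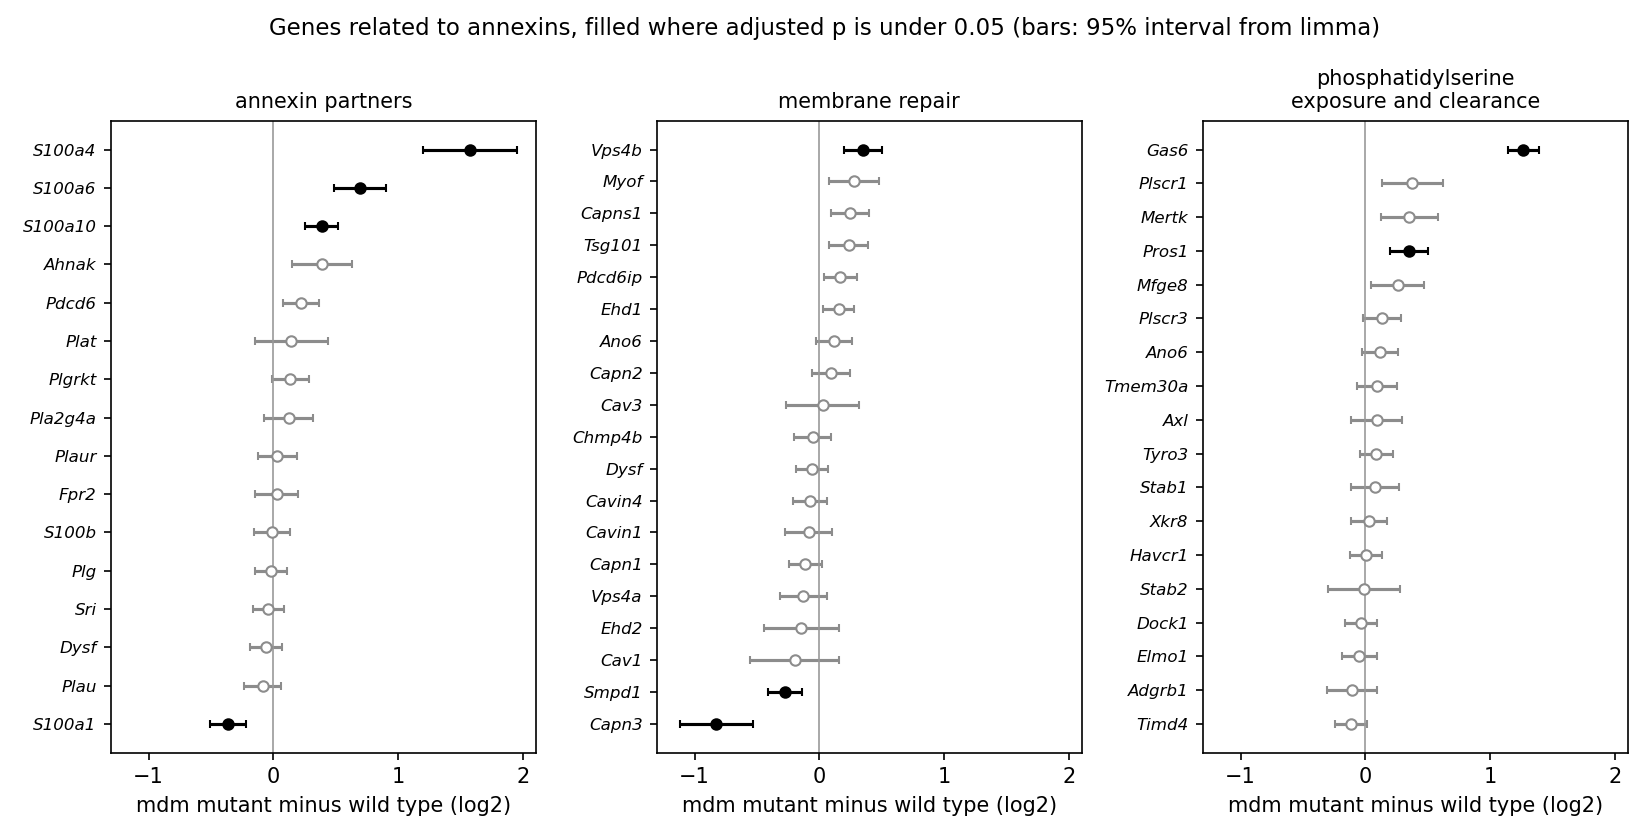
Difference between mdm mutant and wild type muscle (log2, 95% intervals from limma) for annexin partners, other membrane repair genes and genes of phosphatidylserine exposure and clearance, filled where the adjusted p was under 0.05. S100a4, S100a6, S100a10, Vps4b, Gas6 and Pros1 lie to the right, and S100a1, Capn3 and Smpd1 to the left.

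The genes whose levels most resembled those of the annexins with the smallest p-values were found by the root mean square distance between values centred on each gene's mean over the 4 arrays. Nearest to Anxa1 were Maged2, Serinc5 and the chemokine Cx3cl1, at distances of 0.044 to 0.054 log2 units and with differences of 1.18, 1.10 and 1.14. Nearest to Anxa4 were the cytokine receptor subunit Csf2rb2, the membrane-actin linker ezrin (Ezr) and the hyaluronan receptor Cd44, at distances of 0.011 to 0.023. Nearest to Anxa5 were Lpxn, the transcription factor Msc and the transcription factor Yy1, at distances of 0.0059 to 0.011. With 4 arrays many genes can lie close to any given one, so these distances describe the profiles only.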

How the data were processed

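RNA of 4 quadriceps samples was made into biotinylated cRNA by the Affymetrix protocol, per the labels. The authors deposited log2 values, for which the submitters' processing notes name RMA and no version. All 4 columns hold 1 common distribution (26 of 16553 ranks differed by over 1e-06), so a shift shared by most genes would not show. The table has no detection calls, and the number of arrays limits the precision. Groups follow the genotype labels, and mouse numbers were not used to pair mice.

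After 61 control probe sets were left out, 16492 were fitted with limma 3.58.1 in R 4.3.3 (lmFit, eBayes, no covariates), with 5.35 total degrees of freedom per gene. Names came from the platform annotation: 15270 probe sets had 1 gene symbol, 0 had several and 1222 had none. Symbols were checked by Entrez identifier against RefSeq GRCm38.p6 and 0 changed. A gene with several probe sets was represented by the brightest. Simulated data used the 16492 probe sets of this comparison, with 200 of them changed, in 5 draws. Recovery was 96.4% for changes of 0.5 and 99.2% for changes of 1 (log2), beside a mean of 18.2 false calls. In the data 2115 probe sets were called, so the setting differs and these shares do not give the power for the annexins.

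The members, gene lists (annexin partners, membrane repair, phosphatidylserine exposure and clearance, and cell type markers) and tests were chosen with earlier results of these data known. Named are the measured annexins, called genes and the 4 smallest p-values of each functional list, 8 partner and repair genes chosen by role, at most 3 genes per marker list and 3 look-alikes for each of 3 annexins. Krt5, Krt14, Axl and Tyro3 were named outside this rule. Alternatives were a filter on dim probe sets, 3 scalings, 2 variance models, 2 thresholds, averaging of probe sets and each mouse left out. Plots used Python 3.11.15 with matplotlib 3.10.9.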

Additional observations from a re-analysis of the deposited data

How the results depend on the processing

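Over the 8 annexins and 13 alternatives, 103 differences were compared with the main fit. Anxa8 is absent once the dimmer 50% of probe sets are left out. The filter, the variance models and the thresholds change only the call. Averaging changed no annexin value, since each measured annexin has 1 probe set. A difference could not reverse there, nor with a mouse left out for the 7 annexins whose groups did not overlap. None reversed, 81 stayed on their side of the threshold, 18 lost the call and 4 gained it. In limma, 5 annexins rose under the filter on dim probe sets, median centring, repeated quantile normalization, trend and robust eBayes and averaged probe sets, and 6 with hybridization control centring. The arrays already shared 1 distribution, so median centring and repeated quantile normalization could hardly move a value. Those settings and averaging therefore say little about how firm the calls are. Without variance moderation 0 annexins rose (4 at an unadjusted p under 0.05) and 0 fell. There 0 related genes rose and 0 fell (8 and 5 at an unadjusted p under 0.05), and 1 probe set passed. Of all 16492 probe sets, 3286 had an unadjusted p under 0.05 in that fit. With the threshold at 0.01, 2 annexins rose, 2 related genes rose, 0 related genes fell and 304 probe sets were called, and at 0.1, 14 related genes rose and 3719 probe sets were called. With hybridization control centring 19 related genes rose and 3432 probe sets were called, 2829 higher and 603 lower in place of 1066 and 1049. The cause was not tested. With 1 mouse left out, 1 to 6 annexins rose, 0 to 1 fell, 2 to 7 related genes rose, 0 to 1 fell and 490 to 1182 probe sets were called, where the lone mouse of a group is assumed to vary like the other group. Of annexins, 0 fell in the fit of all 4 mice, and at an unadjusted p under 0.05, 6 were higher and 1 (Anxa3) was lower. In that fit 5065 of all 16492 probe sets passed the unadjusted cut. No paired analysis was possible because the labels give each mouse a number of its own.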
